A study of Mus musculus with 9 samples.

Results

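The 10 genes described here encode cell surface receptors that bind the basement membrane, taken by symbol from a table of 35275 mouse genes in 9 RNA libraries. They are the integrin chains Itga1, Itga2, Itga3, Itga6, Itga7, Itgb1 and Itgb4, dystroglycan (Dag1) and the discoidin domain receptors Ddr1 and Ddr2. All 10 were found, and all 10 had enough counts to be tested. The tissue was the anterior segment of the eye at postnatal day 0, freed of the lens, and so held cornea, iris, ciliary body and the drainage tissue. The 3 wildtype samples were Col4a1+/+ and the 6 mutant samples were Col4a1+/G1344D, heterozygous for a glycine to aspartate missense change in a type IV collagen chain. Eyes were pooled, 4 from 2 mice in each sample, so the tests measure the spread between pools. The sources used here do not give the strain. The comparison asks whether the genes for cells' receptors differ when a main collagen of the basement membrane is mutant.

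Integrins are heterodimers of an alpha and a beta chain that span the membrane and tie the matrix to the cytoskeleton. The alpha chain sets much of the ligand choice: alpha-1 and alpha-2 bind collagens, and alpha-3, alpha-6 and alpha-7 bind laminins. All of these pair with the beta-1 chain, and alpha-6 also pairs with beta-4 in the hemidesmosome, the junction that fixes epithelial cells to their basement membrane. Dystroglycan is a laminin receptor whose extracellular part binds through long sugar chains, and DDR1 and DDR2 are receptor tyrosine kinases that are activated by collagen. In the anterior segment, such receptors lie along the epithelial basement membrane and on vessel, stromal and endothelial cells.

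Counts per library summed to between 25995340 and 35306935. Markers of the labelled tissue were present: the summed level of 7 surface epithelium markers lay between 7069 and 8051 CPM (counts scaled to a common library size of 1e6) in wildtype and between 6745 and 7906 in mutant libraries, and that of 5 pigmented iris and ciliary markers between 15329 and 16004 and between 13571 and 15257 CPM. Markers of removed or neighbouring tissue were near 0, with 5 lens markers at 7.87 to 8.52 CPM in wildtype and 5.78 to 8.61 in mutant libraries, and with the retinal gene Rcvrn at 0 in all 9. The 7 red cell markers, 4 of them called higher and 0 lower, summed to 533 to 939 CPM in wildtype and to 1797 to 8787 CPM in mutant libraries, without overlap, and their part in the receptor values was not tested. The libraries stood apart in the share of counts on Gm42418, a gene over ribosomal RNA sequence: it was 0.0663% to 0.0708% in wildtype 2, wildtype 3 and mutant 2 and 4.11% to 6.91% in the other 6. This split leaves 1 wildtype against 5 mutant libraries on the high side and 2 against 1 on the low side. The libraries also differed in how log2 CPM varied with exon length, and 9 of the 10 receptor genes had an annotated exon length above the median of 4242 bases over all tested genes. In bulk tissue, fewer cells of a type and less RNA per cell cannot be told apart.

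In wildtype tissue Itgb1, the common partner of the collagen and laminin binding alpha chains, had the highest level per length of the 10, at 167 ± 7.38 CPM per kb of principal transcript (SD, n = 3). Ddr1 followed at 75.1 ± 0.909 and Dag1 at 56.5 ± 4.01 CPM per kb. These are levels corrected for transcript length, so they can be set side by side. The laminin-binding chain Itga6 stood at 31 ± 3.23, Ddr2 at 20 ± 2.97 and Itga3 at 17.6 ± 1.6 CPM per kb, and the wildtype ranges of Ddr2 and Itga3 overlapped. Itgb4, the hemidesmosome beta chain, stood at 5.44 ± 0.999 CPM per kb. The lowest levels per length of the 10 were those of Itga7 (1.99 ± 0.187), which is best known from muscle, Itga1 (0.897 ± 0.154) and Itga2 (0.594 ± 0.208). Itga1 and Itga2 are the collagen-binding alpha chains among these 10 genes, and their wildtype ranges also overlapped. For every other pair of neighbours in this order the wildtype ranges did not overlap. The mutant means had the same order. With all annotated exon bases as the length, Itga6 moved from rank 4 to rank 6 and Itga1 and Itga2 changed places, since the annotation of Itga6 holds 9025 exon bases and its principal transcript 4310.

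**Figure D1:**
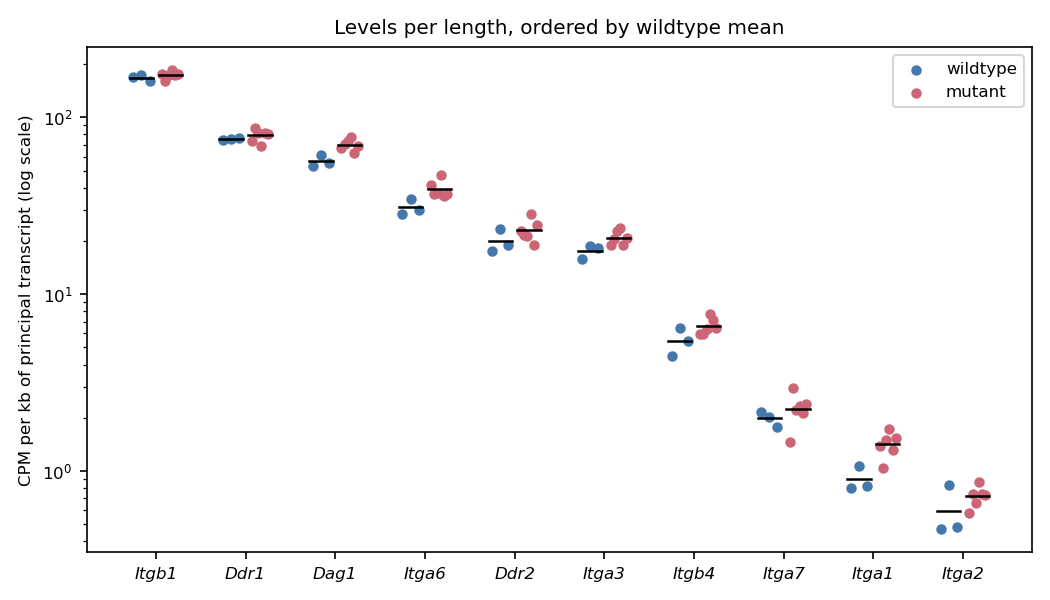
CPM per kb of principal transcript on a log axis for the 10 receptor genes, ordered by the wildtype mean. Each point is a library (3 wildtype, 6 mutant) and each bar a group mean, and Itgb1 stands highest at 167 and Itga2 lowest at 0.594 CPM per kb in wildtype.

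Of the receptor genes, 3 were called higher in the mutant, the collagen-binding chain Itga1, the laminin-binding chain Itga6 and dystroglycan, with folds of 1.58, 1.27 and 1.24. 0 were called lower, and 7 were not called (edgeR quasi-likelihood test, adjusted p under 0.05 over all 15825 tested genes, and the DESeq2 count was 4 higher and 0 lower). The mean was higher in the mutant for all 10, and at an unadjusted p under 0.05 the count was 5 higher and 0 lower. The share of all tested genes at an unadjusted p under 0.05 was not counted in this or the other fits. The unadjusted counts are therefore given without a background share, and no result about the receptor genes is read from them. Over all tested genes 9.70% were called higher and 9.47% lower. The median log2 fold change of the 10 genes was 0.26, where that of all tested genes was -0.0019. These calls did not hold under several other fits: 0 of the 10 genes were called higher or lower without wildtype 1, without wildtype 3, or once the exon length trend was removed (edgeR), with 3, 4 and 3 higher at an unadjusted p under 0.05. Of all tested genes 1.88%, 5.25% and 5.80% were called higher in these fits. The log2 fold changes of Itga1, Itga6 and Dag1 were 0.58, 0.29 and 0.27 without wildtype 1 and 0.60, 0.32 and 0.30 without wildtype 3, against 0.66, 0.34 and 0.31 on all libraries.

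**Figure D2:**
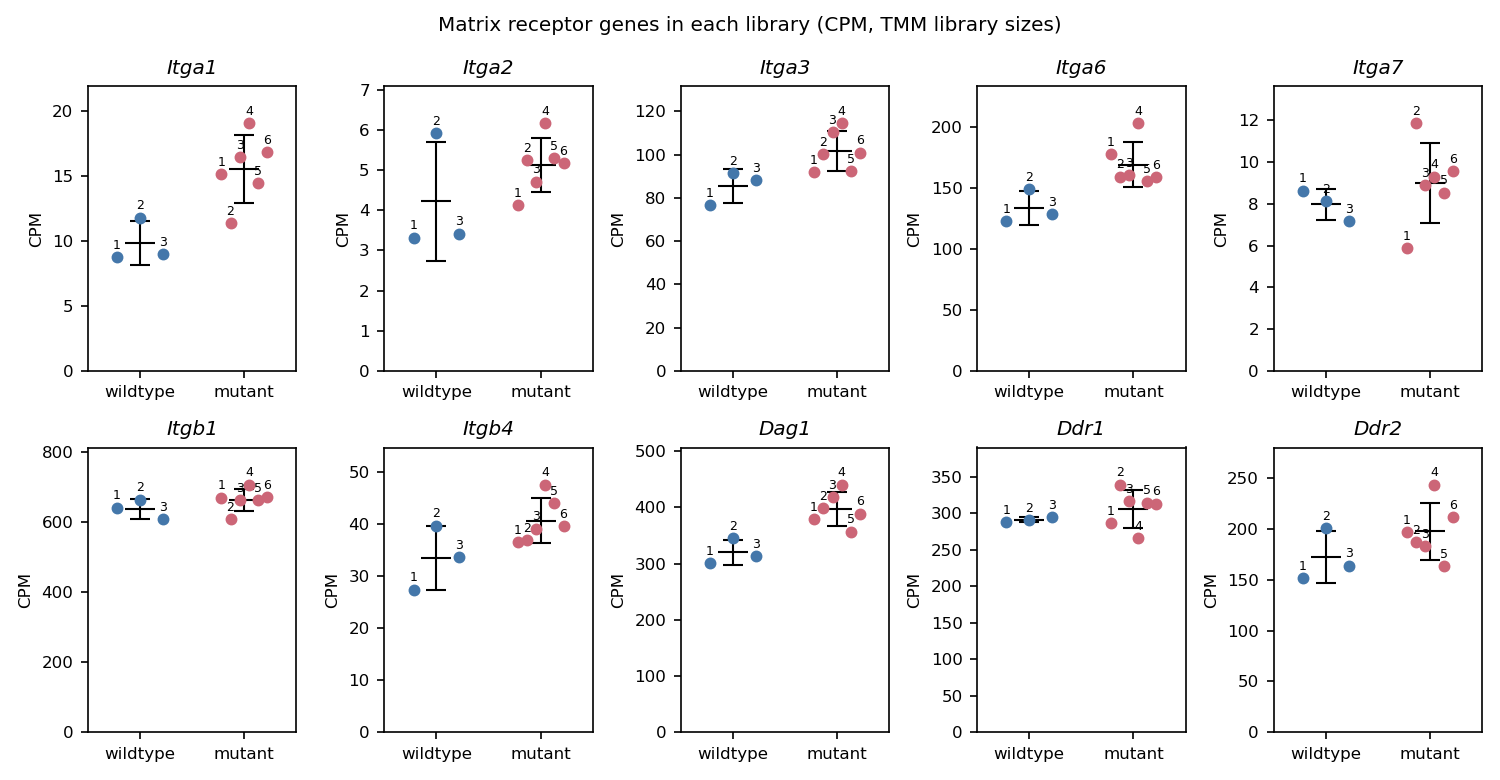
CPM of each receptor gene in the 3 wildtype (blue) and 6 mutant (red) libraries, with the library number beside each point and the mean and SD as bars. All 6 mutant libraries lie above all 3 wildtype libraries for Itga3, Itga6 and Dag1, and for no other gene of the 10.

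Among the receptors for laminin, Itga6 (ENSMUSG00000027111, chromosome 2, 71745616 to 71858416 of GRCm38, plus strand) was measured at 123, 149 and 128 CPM in wildtype 1 to 3, and its mutant libraries ran from 156 over a median of 160 to 203 CPM. The groups did not overlap, although the highest wildtype library lay close to the lowest mutant ones. Mean levels of 133 ± 13.9 (SD, n = 3) and 169 ± 18.4 CPM (SD, n = 6) gave a log2 fold change of 0.34 with an SE of 0.0953, or 1.27-fold (adjusted p = 0.0207 in edgeR). With the exon length trend removed the log2 fold change was 0.17 (edgeR adjusted p = 0.148), and with the trend on principal transcript length removed it was 0.22 (adjusted p = 0.0927). The A and B splice variants known for Itga3, Itga6 and Itga7, which differ in their tails inside the cell, are not separated by counts per gene.

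Itga3, which encodes the other main laminin-binding alpha chain of epithelia, stood at 76.7, 91.4 and 88.3 CPM in wildtype and at 91.8 to 115 CPM in mutant libraries, with a median of 100.5. The mutant libraries all lay above the wildtype ones, but wildtype 2 and mutant 1 differed by less than 1 CPM. Its fold of 1.19 did not pass the test (edgeR adjusted p = 0.0647), while DESeq2 called it higher (adjusted p = 0.0443). Leaving out mutant 1 also brought it past the threshold (edgeR adjusted p = 0.0416), as did limma voom (adjusted p = 0.0299). That was 1 of the 9 fits without a library. Its log2 fold change was 0.18 without wildtype 1 and 0.28 without wildtype 3 (edgeR adjusted p = 0.312 and 0.122). With the exon length trend removed it was 0.17 (edgeR adjusted p = 0.175). Removing the trend on principal transcript length gave 0.09 (edgeR adjusted p = 0.490).

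Itgb4 stood at 27.4, 39.7 and 33.5 CPM in wildtype and between 36.5 and 47.5 CPM in mutant libraries, with a median of 39.3. Wildtype 2 lay inside the mutant range and wildtype 1 and 3 below it. The fold of 1.21 did not pass the test (log2 0.28, edgeR adjusted p = 0.115). Nor did it with DESeq2 (adjusted p = 0.0901), while limma voom called Itgb4 higher (adjusted p = 0.0343). Without wildtype 2 the log2 fold change of Itgb4 was 0.42 and passed (edgeR adjusted p = 0.0333), and without wildtype 1 it was 0.15 (edgeR adjusted p = 0.509). The annotation places exons of B230344G16Rik over 7.66% of the exon bases of Itgb4, on the other strand, and the strand setting of the counting is unknown here. The summed surface epithelium markers given above overlapped between the groups, with 1 of 7 called higher and 0 lower. The called marker was Trp63, a regulator of squamous epithelium, with means of 88.1 and 111 CPM (singled out once values were known), and it was not called without wildtype 1, without wildtype 3 or with the exon length trend removed, while the keratin genes Krt5 and Krt14 stood at 2987 and 373 CPM in wildtype and at 2941 and 336 CPM in mutant libraries.

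Itga7 stood at 8.63, 8.14 and 7.15 CPM in wildtype. The mutant libraries spread on both sides of these values, from 5.89 CPM in mutant 1 to 11.9 in mutant 2, with a median of 9.09, and the fold of 1.13 did not pass the test (edgeR adjusted p = 0.541). The 7 skeletal muscle markers summed to 11.1 to 16.3 CPM in wildtype and to 12.5 to 17.4 CPM in mutant libraries. The 5 smooth muscle markers summed to 1390 to 1455 and to 924 to 1191 CPM, with 5 called lower in the fit on all libraries, 3 without wildtype 1 or with the exon length trend removed and 2 without wildtype 3 or with the Gm42418 covariate, and the part of either cell type in the Itga7 values was not tested.

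Dystroglycan is made from a single precursor encoded by Dag1 (ENSMUSG00000039952, chromosome 9, 108204634 to 108263958, minus strand). It stood at 301, 345 and 313 CPM in wildtype and at 357 to 440 CPM in mutant libraries, with a median of 394. The groups did not overlap, as for 3 of the 10 receptor genes, all with the mutant above. Over all tested genes 10.8% had every mutant library above, 11.2% every mutant library below, and 22% either. Mean levels of 320 ± 22.7 and 397 ± 29.6 CPM gave a log2 fold change of 0.31 with an SE of 0.0832, or 1.24-fold (adjusted p = 0.0174 in edgeR). Of the 3 called receptor genes, Dag1 was the one that was also called with the Gm42418 share as a covariate (log2 0.34, edgeR adjusted p = 0.0464). It was not called with the exon length trend removed (log2 0.21, edgeR adjusted p = 0.0612). With the trend on principal transcript length removed its log2 fold change was 0.11 (edgeR adjusted p = 0.336).

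Among the receptors for collagen, Itga1 (ENSMUSG00000042284, chromosome 13, 114953096 to 115101964, minus strand) moved most of the 10 in log2 fold change. It stood at 8.74, 11.8 and 8.99 CPM in wildtype, from 237, 314 and 250 counts, and the mutant libraries ran from 11.3 over a median of 15.8 to 19 CPM. Mutant 2 lay inside the wildtype range and the other 5 mutant libraries above it. Mean levels of 9.83 ± 1.68 (SD, n = 3) and 15.5 ± 2.59 CPM (SD, n = 6) gave a log2 fold change of 0.66 with an SE of 0.165, or 1.58-fold (adjusted p = 0.0126 in edgeR). Among the libraries high in Gm42418, where wildtype 1 faced 5 mutant libraries, the difference in mean log2 CPM was 0.89. Among those low in it, where mutant 2 faced 2 wildtype libraries, it was 0.14. With the share as a covariate the log2 fold change was 0.53 (edgeR adjusted p = 0.104). Itga1 has the longest annotated exon length of the 10, 18599 bases, and with the exon length trend removed its log2 fold change was 0.38 (edgeR adjusted p = 0.073). With the trend on principal transcript length removed it was 0.34 (edgeR adjusted p = 0.125). The annotation places exons of Gm49395 over 3.68% of its exon bases.

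Itga1 is known from vessel walls and stromal cells. The 6 blood vessel endothelium markers, of which 5 were called higher and 0 lower, summed to 377 to 433 CPM in wildtype and to 509 to 621 CPM in mutant libraries, without overlap. Without wildtype 1 and without wildtype 3 the markers called higher were 1 and 3. The 5 pericyte markers, of which 3 were called higher and 0 lower, summed to 227 to 276 and to 291 to 368 CPM, also without overlap. The 5 smooth muscle markers and the 5 stromal keratocyte markers, given with Itga7 and Ddr2, went the other way. Of these, 5 and 4 were called lower and 0 higher in the fit on all libraries. No defining marker of these lists was at 0, and the part of these cell types in the Itga1 values was not tested.

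Itga2, the other collagen-binding alpha chain among the 10 genes, stood at 3.32, 5.92 and 3.42 CPM in wildtype. Its mutant libraries lay between 4.12 and 6.17 CPM, with a median of 5.21. Wildtype 2 lay above 5 of the 6 mutant libraries and wildtype 1 and 3 below all of them. The fold of 1.21 did not pass the test (log2 0.28, edgeR adjusted p = 0.382), from 90 to 158 counts per wildtype library. The log2 fold change was 0.61 without wildtype 2 (edgeR adjusted p = 0.0595), 0.13 without wildtype 1 and 0.15 without wildtype 3. Itga2 and Itga7 had the fewest counts of the receptor genes, 1303 and 2347 over the 9 libraries.

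The common beta chain Itgb1 (ENSMUSG00000025809, chromosome 8, 128685654 to 128733200, plus strand) had 176542 counts over the libraries, the most of the 10. It stood at 642, 665 and 609 CPM in wildtype and between 609 and 707 CPM in mutant libraries, with a median of 666. The groups overlapped, and the log2 fold change was 0.06 with an SE of 0.0778 (edgeR adjusted p = 0.652).

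The discoidin receptors overlapped between the groups as well. Ddr1, the epithelial member of the pair, stood at 288, 291 and 295 CPM in wildtype. The mutant libraries spread more widely, from 266 over a median of 314 to 339 CPM, with 4 above and 2 below all wildtype libraries (fold 1.05, edgeR adjusted p = 0.575). Ddr2, the mesenchymal member, which binds fibrillar collagens, stood at 151, 200.4 and 164 CPM in wildtype and between 163 and 243 CPM in mutant libraries, with a median of 191 (log2 fold change 0.20, edgeR adjusted p = 0.233). The 5 keratocyte markers of the corneal stroma, of which 0 were called higher and 4 lower, summed to 6729 to 9216 CPM in wildtype and to 4694 to 6873 CPM in mutant libraries, and their part in the Ddr2 values was not tested. Of these markers 0 were called lower without wildtype 1 and 2 with the exon length trend removed. An antisense gene, Gm4577, covers 4.52% of the exon bases of Ddr1.

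The same libraries were extreme for most of the receptor genes. Wildtype 2 was the highest wildtype library for 8 of the 10, wildtype 1 the lowest for 8 and mutant 4 the highest mutant library for 8, with Itga7 and Ddr1 as the exceptions for wildtype 2 and mutant 4. At the exon length of Itga1 the smooth length trend of these libraries stood at -0.33 in wildtype 1, -0.07 in wildtype 2, -0.16 in wildtype 3 and 0.35 in mutant 4 on the log2 scale. For Itgb1, with 4081 exon bases, the mutant mean of the trend lay within 0.001 of the wildtype mean, and for Ddr2 it lay 0.18 above it.

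**Figure D3:**
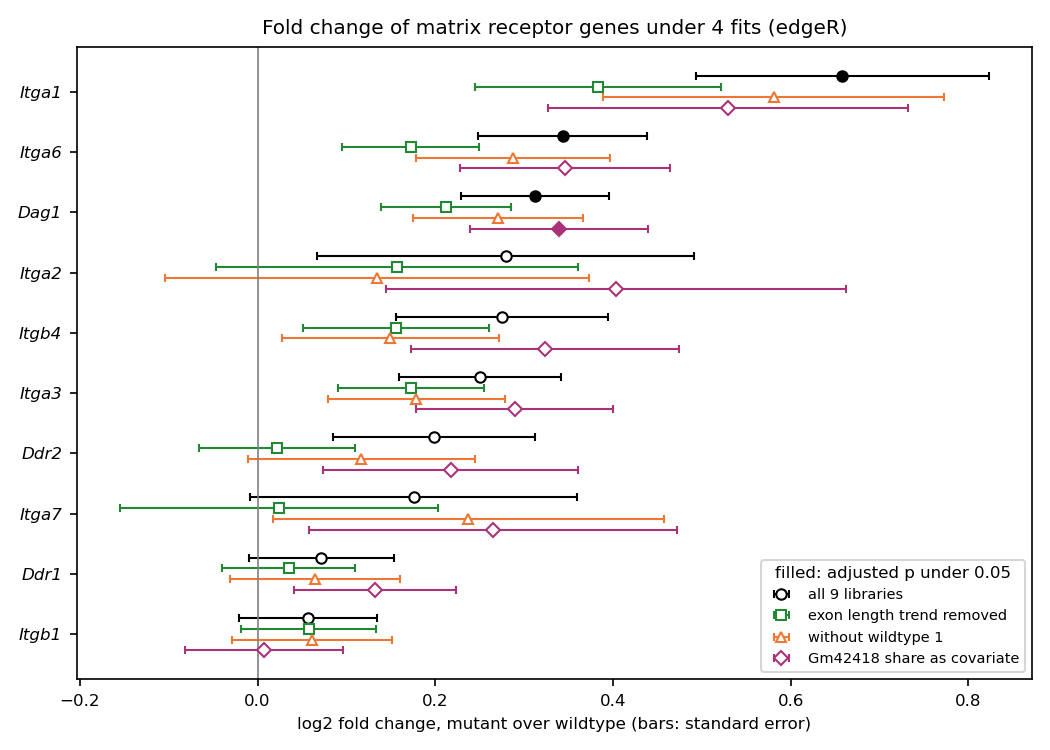
Log2 fold change of mutant over wildtype with its standard error for each receptor gene, in the fit on all 9 libraries and in fits with the exon length trend removed, without wildtype 1 and with the Gm42418 share as a covariate. Filled symbols are called at an adjusted p under 0.05, which holds for Itga1, Itga6 and Dag1 in the first fit, for none with the length trend removed or without wildtype 1, and for Dag1 with the covariate.

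Start regions were read from RefSeq's table for GRCm38.p6, which matched 7 of the 10 genes. The windows of 3 are shown because they set both kinds of result side by side: Itga1 and Dag1, which were called higher, and Itgb1, the most abundant chain, which was not called. Each is the 250 bases before the annotated start, 5′ to 3′ on the gene's strand, at chr13:115101965-115102214 (minus strand), chr9:108263959-108264208 (minus) and chr8:128685404-128685653 (plus).
Itga1: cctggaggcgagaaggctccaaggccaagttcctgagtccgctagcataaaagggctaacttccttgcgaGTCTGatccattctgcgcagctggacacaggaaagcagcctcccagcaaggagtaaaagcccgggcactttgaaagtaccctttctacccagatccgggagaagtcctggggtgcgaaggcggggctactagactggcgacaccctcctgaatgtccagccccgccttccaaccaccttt
Dag1: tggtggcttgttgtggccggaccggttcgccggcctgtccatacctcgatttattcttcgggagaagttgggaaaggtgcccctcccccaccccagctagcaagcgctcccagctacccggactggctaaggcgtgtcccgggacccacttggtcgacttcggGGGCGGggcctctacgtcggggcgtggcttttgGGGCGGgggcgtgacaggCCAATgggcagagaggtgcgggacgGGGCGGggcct
Itgb1: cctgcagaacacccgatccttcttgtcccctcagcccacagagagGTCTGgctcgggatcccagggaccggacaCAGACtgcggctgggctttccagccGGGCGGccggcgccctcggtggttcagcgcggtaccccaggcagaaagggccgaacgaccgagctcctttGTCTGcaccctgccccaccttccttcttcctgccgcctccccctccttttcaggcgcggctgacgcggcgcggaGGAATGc
Capitals mark matches, on either strand, to CAGAC (the core bound by SMAD proteins), TGANTCA (AP-1), GGGCGG (SP1), CCAAT (the CCAAT box bound by NF-Y), TATAAA (the TATA box) and GGAATG (TEAD), and no motif of this set lies within another. Itga1 held a single match, to the SMAD core, which 42.2% of the windows of 27025 genes also hold at least once. Dag1 held 3 matches to GGGCGG, found in 33% of windows, and 1 to CCAAT, found in 34.5%. Itgb1 held 3 matches to the SMAD core, 1 to GGGCGG and 1 to the TEAD motif, which 12.6% of windows hold. The GC content was 57.6% for Itga1, 67.6% for Dag1 and 68.0% for Itgb1, and the median window had 52.0%. These matches describe the letters only, and none of the motifs other than the widespread CAGAC and GGGCGG cores was shared between the windows shown.

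Ratios of counts within a library do not depend on the scaling of libraries, and 5 were computed. The ratio of Itga1 to its beta partner Itgb1 was 0.0136, 0.0177 and 0.0148 in wildtype and ran from 0.0186 over a median of 0.0236 to 0.0269 in mutant libraries. All 6 mutant libraries lay above all 3 wildtype ones, a mean difference of 0.60 on the log2 scale (exact two-sided permutation p = 0.0119, the smallest that 84 splits can give, and 0.0595 after Benjamini-Hochberg adjustment over the 5 ratios). With the exon length trend removed this difference was 0.32. The ratio of Itga1 to Itga2 was 2.63, 1.99 and 2.63 in wildtype and 2.16 to 3.67 in mutant libraries, with 5 of 6 mutant libraries above all wildtype ones (log2 difference 0.33, exact permutation p = 0.119, adjusted 0.298). Without mutant 2 the differences of Itga1/Itga2 and Itga1/Itgb1 were 0.43 and 0.66, each with an adjusted exact permutation p of 0.0446. That was the 1 of 9 fits without a library in which either passed. In the others the adjusted exact permutation p reached 0.536 for Itga1/Itga2 and 0.179 for Itga1/Itgb1. For Itga1/Itgb1 the unadjusted exact permutation p was the smallest possible in each of these fits. It was 0.0357 without a wildtype library and 0.0179 without a mutant library. Whether its adjusted p passed was therefore set by the number of splits and by a tie with Itga1/Itga2 without mutant 2.

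The partners in the hemidesmosome integrin kept overlapping ratios. Itga6/Itgb4 was 4.49, 3.76 and 3.83 in wildtype and 3.54 to 4.87 in mutant libraries (log2 difference 0.06, exact permutation p = 0.571, adjusted 0.571). On the log2 scale Itga3/Itga6 was -0.68, -0.71 and -0.54 in wildtype and -0.95 to -0.54 in mutant libraries (difference -0.09, exact permutation p = 0.381, adjusted 0.571). Ddr2/Ddr1 was -0.93, -0.54 and -0.85 in wildtype and -0.95 to -0.13 in mutant libraries (difference 0.13, exact permutation p = 0.548, adjusted 0.571). Per kb of principal transcript, the 5 alpha chains summed to 28.3%, 32.9% and 32.0% of the level of Itgb1 in wildtype and to between 34.1% and 40.8% in mutant libraries, which did not overlap with the wildtype ones. Of single tested genes, 22% had groups without overlap. On the log2 scale the mutant mean of the exon length trend lay 0.08 (Itga3) to 0.28 (Itga1) above the wildtype mean for these alpha chains. For Itgb1 this trend difference was -0.0008. The sum was not computed with the trend removed, and the part of the trend in it was not tested. Itga6 made up 58.4% to 60.3% of that alpha chain sum in wildtype and 57.9% to 64.9% in mutant libraries, and Itga3 32.8% to 35.6% and 29.7% to 35.3%. The other alpha chains that pair with beta-1, and the share of Itga6 that pairs with Itgb4, are not in these sums.

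**Figure D4:**
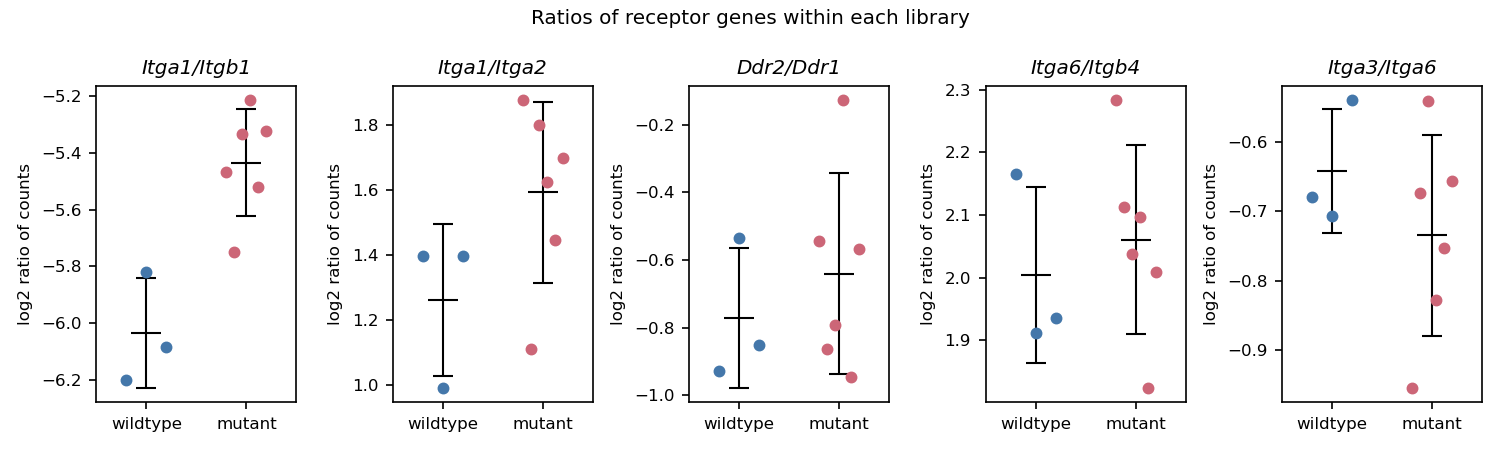
Log2 ratio of counts of 2 receptor genes within each library, for 5 pairs, with points for libraries and bars for the mean and SD of 3 wildtype and 6 mutant libraries. The groups are apart only for Itga1/Itgb1, where the highest wildtype value is -5.82 and the lowest mutant value -5.75.

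Other integrin subunits were set beside these receptors. Of 19, 17 were tested, 9 were called higher and 0 lower (edgeR, with a median log2 fold change of 0.51). Over all tested genes 9.70% were called higher and 9.47% lower. The share called higher was 1.88% without wildtype 1, 5.25% without wildtype 3 and 5.80% with the exon length trend removed. These shares are the background for this list and the lists that follow. Itgav, which encodes the alpha chain of several RGD-binding integrins and was the most abundant of the called ones, rose 1.42-fold from 130 ± 12.3 to 184 ± 22.5 CPM (edgeR adjusted p = 0.00428), without overlap between the groups. Itga4, a chain of leukocyte and mesenchymal integrins, rose 1.77-fold (adjusted p = 0.00491), and was not called without wildtype 1 (edgeR adjusted p = 0.053). The leukocyte integrin genes Itgb2 and Itgam rose 3.69-fold and 2.30-fold, from 2.16 ± 1.10 to 8 ± 0.567 and from 4.93 ± 0.605 to 11.3 ± 1.96 CPM. The 5 macrophage markers, 2 of them called higher and 0 lower, summed to 116 to 125 CPM in wildtype and to 131 to 170.0 CPM in mutant libraries, and their part was not tested. Without wildtype 1 the list held 4 genes called higher, and with the exon length trend removed 5.

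Of 9 other matrix receptors, 3 were called higher and 1 lower, with a median log2 fold change of 0.08. Adgrg6, an adhesion G protein-coupled receptor known to bind type IV collagen, rose 1.55-fold from 24.8 ± 1.82 to 38.5 ± 3.83 CPM (edgeR adjusted p = 0.00185). It stayed called in each fit that left out a library (highest edgeR adjusted p = 0.0248) and with the exon length trend removed (0.00857). The proteoglycan gene Sdc3 and the hyaluronan receptor gene Cd44 rose 1.27-fold and 1.22-fold. Cd151, a tetraspanin that partners laminin-binding integrins, fell from 156 ± 18.6 to 119 ± 8.72 CPM (log2 -0.39, edgeR adjusted p = 0.00715), with all mutant libraries below all wildtype ones. Sdc3 and Cd151 were not called without wildtype 1 (edgeR adjusted p = 0.0585 and 0.0829), and Cd44 without wildtype 1 or wildtype 2 or with the exon length trend removed (edgeR adjusted p = 0.093).

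Of 30 integrin adaptors and kinases, which link beta chain tails to actin, 29 were tested, 10 were called higher and 1 lower, with a median log2 fold change of 0.18. The actin linker Vcl rose 1.36-fold from 95 ± 6.12 to 130 ± 8.26 CPM (edgeR adjusted p = 0.00237), and the tensins Tns4 and Tns3, which bind beta tails, rose 1.61-fold and 1.42-fold (adjusted p = 0.00331 and 0.00344). These 3 calls held in each fit that left out a library and with the exon length trend removed. Parvg, the parvin of blood cells, rose 2.6-fold from 1.07 ± 0.553 to 2.80 ± 0.646 CPM, and was not called with the Gm42418 share as a covariate (edgeR adjusted p = 0.057). Ilk, the integrin-linked kinase, had too few counts to be tested, and 89.7% of its exon bases are shared with exons of Taf10 and Rrp8. Without wildtype 1 and without wildtype 3 4 adaptor or kinase genes were called higher and 0 lower, against 6 and 1 with the exon length trend removed.

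Of 7 hemidesmosome plaque and partner genes, 2 were called higher and 1, Cd151, lower, with a median log2 fold change of 0.26. The laminin chain gene Lama3, which encodes part of a ligand of the alpha-6 beta-4 integrin, rose 1.64-fold from 19.2 ± 3.71 to 31.5 ± 6.11 CPM (edgeR adjusted p = 0.00664). The laminin chain gene Lamb3 did not pass the test (15 and 19.1 CPM, edgeR adjusted p = 0.137). Lama3 was not called without wildtype 1 (edgeR adjusted p = 0.0678), where the list held 0 genes called higher or lower. With the exon length trend removed it held 1 called higher and 1 lower.

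Of 13 genes of the dystrophin-associated complex, which joins dystroglycan to actin inside the cell, 1 was called higher and 1 lower: the syntrophin Sntb2 rose 1.35-fold and the sarcoglycan Sgce fell from 73.2 ± 7.09 to 58.7 ± 4.70 CPM (edgeR adjusted p = 0.0158 and 0.0241). These counts are near the 9.70% called higher and 9.47% called lower over all tested genes. The list's median log2 fold change was 0.12, and -0.08 with the exon length trend removed. The utrophin gene Utrn stood at 100.4 ± 20 CPM in wildtype and 125 ± 20.4 CPM in mutant libraries and did not pass the test (edgeR adjusted p = 0.11). Of 13 enzymes that build the laminin-binding sugar of dystroglycan, 1 was called higher and 3 lower, with a median of -0.10. The count called higher is near the 9.70% over all tested genes. Rxylt1 fell from 60.4 ± 8.51 to 45.3 ± 2.16 CPM (log2 -0.41), Pomk, the kinase of the core sugar, from 37.0 ± 1.31 to 28.1 ± 2.92 CPM (log2 -0.40), and Pomgnt1 from 56.6 ± 6.74 to 45.3 ± 2.79 CPM (log2 -0.32, edgeR adjusted p = 0.00718, 0.0125 and 0.0231). The 3 falls stayed called with the exon length trend removed (edgeR adjusted p = 0.00199, 0.0151 and 0.00889), where 0 genes of the list were called higher, and Pomk was not called with the Gm42418 share as a covariate (edgeR adjusted p = 0.0625). Without wildtype 1, 0 genes of either list were called higher or lower (edgeR), so Sntb2, Sgce, Rxylt1, Pomk and Pomgnt1 lost their calls, and without wildtype 3 Sgce and Pomk did. Sntb2 was also not called without wildtype 2 or with the exon length trend removed (edgeR adjusted p = 0.153).

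**Figure D5:**
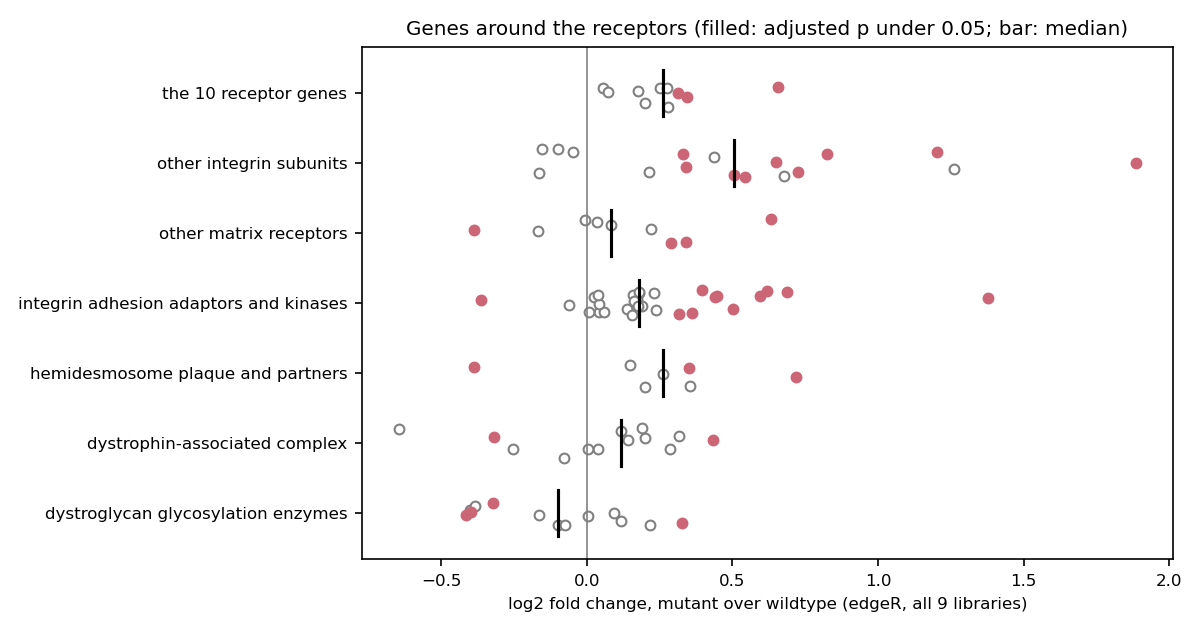
Log2 fold change of mutant over wildtype for the 10 receptor genes and for the tested genes of 6 lists around them, with the median of each as a bar. Filled points are called at an adjusted p under 0.05, and the list medians run from -0.10 for dystroglycan glycosylation enzymes to 0.51 for other integrin subunits.

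Genes with the most similar profile over the 9 libraries were taken from 9744 tested genes with a mean of at least 10 CPM, as a description. For Itga1 these were Atp13a1, Cep170 and Stau1 (Pearson r = 0.980, 0.979 and 0.974 of log2 CPM), and for Itgb1 they were Qk, Zdhhc15 and Rab6a (r = 0.962, 0.938 and 0.922). Cep170 and Stau1 were called higher in the mutant, by 1.41-fold and 1.21-fold (edgeR adjusted p = 0.0167 and 0.0432), and the 3 genes most like Itgb1 were not called. The libraries share their depth and length trends, and no test was made of these correlations.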

How the data were processed

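RNA from 9 pooled samples was sequenced in bulk. The authors deposited unnormalized read counts, 1 whole number for each Ensembl gene and library. The submitters' processing notes name GRCm38 (mm10), HTSeq 0.6.1, STAR 2.6.1 and DESeq2 1.6.3 without their roles. Strand setting and annotation release: not given in the sources used here. Symbols, positions and lengths came from GENCODE M21 (GRCm38), which held 34490 of 35275 identifiers, and 1 gene was matched by an older symbol through RefSeq.

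Genotypes were compared in edgeR 4.0.16 under R 4.3.3, with TMM, the default filter by group, a robust quasi-likelihood fit on genotype and Benjamini-Hochberg adjustment at 0.05 over 15825 genes. CPM values use TMM library sizes, as mean ± SD. The length trend was a smooth of each library's log2 CPM on exon length (mgcv 1.9.3), entered as an offset. Alternatives used DESeq2 1.42.0 and limma 3.58.1 (voom), other scaling, filters and covariates, and left out each library. Libraries of the same group were not repeats of each other (chi-square per degree of freedom of at least 15.6), and 0 columns were left without a sample. Same-numbered wildtype and mutant libraries did not deviate together in all 3 pairs (correlations 0.0947, 0.0258 and -0.104). Named genes were all 10 receptors, up to 4 genes of lowest p per list (some are not reported here), and the 3 most similar genes of 2 receptors. Members and lists were chosen with earlier results of these data known. Simulated counts for mutant over wildtype (15586 genes) gave calls for 77% of genes set to 1.5-fold and for 97% of those set to 2-fold, while 3.87% of calls fell on genes set to no change. These counts were drawn independently for each gene, without a length trend or a Gm42418 split, and only genes above a minimum level were changed. The simulated shares therefore need not hold for the real libraries, which have both. Start regions came from RefSeq (GRCm38.p6).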

Additional observations from a re-analysis of the deposited data

How the results depend on the processing

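The count of receptor genes called higher, 3 in the fit on all libraries, was 3 to 4 under other scaling factors, with total count scaling, with DESeq2 and with weaker or stricter filters, and 5 with limma voom. It was 1 with the replicate block, 1 with the Gm42418 share as covariate, and 0 with the exon length trend removed. Of all tested genes 9.70% were called higher in the fit on all libraries, 13% with DESeq2 and 14.9% with voom. The share was 9.91% with the DESeq2 size factors in edgeR, 7.56% with total count scaling, 7.1% without a filter and 13% with the stricter filter. With the replicate block, the covariate and the exon length trend removed it was 5.07%, 5.02% and 5.80%. Alternatives added after seeing the data gave 1 with only the libraries over 1% Gm42418 (where the wildtype arm is 1 library, assumed to vary like the 5 mutant ones), 1 with a 2-level Gm42418 term, 0 with the principal transcript length trend removed, and 0 with the exon length trend removed without wildtype 1. Of all tested genes 5.93% were called higher with the 2-level term and 4.16% with the principal transcript length trend removed. With the exon length trend removed without wildtype 1 it was 1.4%. Leaving out each library gave 0 to 4 receptor genes called higher, with 0 without wildtype 1 or 3 (1.88% and 5.25% of all tested genes). The count called lower was 0 in every fit run. Under the replicate block, Itga1 and Itga6 lost their calls (log2 0.54 and 0.32, edgeR adjusted p = 0.117 and 0.0567) and Dag1 did not (log2 0.32, 0.0282), and the numbers were not shown to pair samples. Of the pathway genes, 26 were called higher and 6 lower, against 17 and 2 with the replicate block, 14 higher with the exon length trend removed, 13 higher with the Gm42418 covariate, and 9 to 26 higher and 0 to 7 lower over libraries left out, with 15 and 3 without wildtype 3. Signs turned for Itga7 against that single wildtype library (-0.0412), for Ddr2 with the exon length trend removed without wildtype 1 (-0.0323), and for Itgb1, Ddr1 and Ddr2 with the principal transcript length trend removed (-0.0256, -0.0136 and -0.0969). With the exon length trend removed the log2 differences of Ddr2/Ddr1 and Itga3/Itga6 were -0.0084 and 0.0010. Over libraries left out, Itga1/Itga2 ran from 0.20 to 0.43 and Itga1/Itgb1 from 0.52 to 0.71. Within numbers 1 to 3 (replicate block, sign flips), Itga1/Itgb1 differed by 0.52, Itga1/Itga2 by 0.33, Itga6/Itgb4 by 0.14, Itga3/Itga6 by -0.08 and Ddr2/Ddr1 by 0.04, where 3 pairs allow no exact p below 0.25. The cause of these shifts was not tested. Over all genes, the counts called ran from 227 higher and 254 lower with the exon length trend removed without wildtype 1 to 2359 and 2328 with voom, against 1535 and 1499 in the fit on all libraries, with 303 and 235 without wildtype 1, 849 and 820 without wildtype 3, 787 and 660 under the block, 918 and 1250 with the exon length trend removed and 794 and 832 with the covariate.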
